A study of Mus musculus with 61 samples.

Results

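The 9 circadian clock genes Per1, Per2, Per3, Dbp, Nr1d1, Arntl, Clock, Cry1 and Cry2 were followed through the fractions of whole mouse brains. Each was found by its symbol through the RefSeq accession of its probes, and where a gene had several probes the one with the highest mean signal was used. They are 9 of 16358 genes named on the array, of which 15530 had a probe above background on at least 1 array. All 9 probes were well above background on 61 of 61 arrays.

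The 61 fractions came from 6 male C57BL/6J mice of 8 weeks, 1 mouse per series of sections. The mice were perfused through the heart with RNAlater under anaesthesia, and no other treatment is described. Frozen brains were cut into 5 µm sections, and 200 consecutive sections were pooled into a fraction 1 mm thick, which was hybridised to 1 array with 1 colour. S (9 fractions, labelled S2 to S10) and So (10) ran from left to right, C (13) and Co (16) from caudal to rostral, and H (6) and Ho (7) from dorsal to ventral. So, Co and Ho were cut slightly obliquely to the plane of S, C and H. The study pairs 56 of the fractions into 28 pairs at matching positions (13 coronal, 6 horizontal and 9 sagittal), which leaves out Co1, Co13 and Co16 as well as So1 and Ho1.

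A fraction holds all cells of its slab, so that a lower level from fewer cells expressing a gene and one from less RNA per cell cannot be told apart. The main fit takes out the average offset of each mouse against its partner. Its p-values therefore rest on how far single pairs scatter around that offset, pooled over all planes. The comparisons of So with S, Co with C and Ho with H thus used fractions of 1 brain as replicates. Their p-values carry no spread from mouse to mouse. With 1 mouse on each side of a pair, the mouse, its cutting angle, its slides and its scan day cannot be told apart. The time of day at which the mice were killed is not given in the sources used here. The signal at the 75th percentile of an array, used for scaling, was between 737 and 1919 units over the 61 arrays, and 57.9% to 73.1% of probes were well above background.

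The mammalian circadian clock is a feedback loop of transcription. CLOCK and ARNTL (also called BMAL1) bind as a pair to E-boxes and activate the Per and Cry genes, whose proteins return to the nucleus and repress that pair. A second loop runs through Nr1d1, which encodes the repressor REV-ERB alpha and silences Arntl through ROR elements, and Dbp encodes an activator that acts through D-boxes on output genes. The suprachiasmatic nucleus of the hypothalamus is the master pacemaker, but the loop runs in most cells of the brain, and Per1 also responds directly to neuronal activity and to glucocorticoids.

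The promoter windows of 4 members are shown because these genes include the pair with the most similar layouts (Per1 and Cry2) and the cryptochrome with another layout (Cry1), together with the activator Arntl. Each window holds 300 bases, from 250 before a transcription start to 50 after it, as listed by RefSeq on GRCm38.p6, and is written 5′ to 3′ on the strand of the gene. Capitals mark an E-box (CACGTG) or a ROR element (TAGGTCA or TGGGTCA), searched on both strands.
Per1, chr11:69098699-69098998, plus strand: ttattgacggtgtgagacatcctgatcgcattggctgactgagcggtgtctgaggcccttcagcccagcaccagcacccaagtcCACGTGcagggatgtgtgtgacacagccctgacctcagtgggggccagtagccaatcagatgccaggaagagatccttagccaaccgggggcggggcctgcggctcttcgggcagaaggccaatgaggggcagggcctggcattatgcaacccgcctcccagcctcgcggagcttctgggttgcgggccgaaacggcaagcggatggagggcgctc
Cry2, chr2:92434020-92434319, minus strand: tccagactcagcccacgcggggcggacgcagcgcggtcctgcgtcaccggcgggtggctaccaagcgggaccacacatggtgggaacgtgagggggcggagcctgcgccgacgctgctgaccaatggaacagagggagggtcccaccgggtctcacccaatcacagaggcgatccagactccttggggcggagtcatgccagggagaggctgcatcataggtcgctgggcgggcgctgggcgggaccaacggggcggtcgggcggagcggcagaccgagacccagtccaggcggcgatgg
Cry1, chr10:85185005-85185304, minus strand: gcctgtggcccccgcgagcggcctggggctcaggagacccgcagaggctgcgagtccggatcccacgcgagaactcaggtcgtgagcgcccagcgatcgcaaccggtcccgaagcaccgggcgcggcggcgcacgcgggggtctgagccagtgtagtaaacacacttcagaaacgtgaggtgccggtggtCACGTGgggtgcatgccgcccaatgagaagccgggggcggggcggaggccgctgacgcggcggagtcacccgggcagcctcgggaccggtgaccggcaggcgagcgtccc
Arntl, chr7:113207261-113207560, plus strand: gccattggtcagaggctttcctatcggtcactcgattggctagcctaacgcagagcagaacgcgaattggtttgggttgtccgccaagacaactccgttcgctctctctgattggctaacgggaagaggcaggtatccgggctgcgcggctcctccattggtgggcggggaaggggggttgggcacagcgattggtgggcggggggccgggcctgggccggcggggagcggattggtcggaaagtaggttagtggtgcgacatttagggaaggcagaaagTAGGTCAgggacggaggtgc

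A window was listed for 8 of the 9 members, with 12 windows in all. Positions are counted in bases from the start. The E-box was in 1 of 2 Per1 windows, at −166, and in the Cry1 window, at −60. Among all 32851 promoter windows of this length, 7.15% held an E-box. The D-box (TTATGTAA or TTACGTAA) stood in the Per3 window at −205 and −158, and 1.06% of all windows held one. The ROR element was in 1 of 2 Arntl windows, at 30, against 6.45% of all windows. The cAMP response element TGACGTCA was in 0 of the 12 windows and in 1.79% of all. The windows of Cry2, Dbp, Nr1d1 and Clock held none of these letters, which says nothing of more distant sites. The E-box motif thus stood in a window of Per1 and of Cry1 and not in that of Cry2, and a relation of these motifs to the layouts was not tested.

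All levels below are log2 of the signal after scaling each array to its 75th percentile, and a centred level is that value minus the mean of its series. In an F test of limma, 7 of the 9 genes differed among the 28 pairs. The offset between the 2 mice of a plane was taken out, and p-values were adjusted by Benjamini and Hochberg's method over 36519 probes. The planes were cut from different mice, so that this F holds differences between mice of different planes as well as position. Of all probes 85.9% passed, so that a share of 7 of 9 was near the background. Among probes that, like the members, were well above background on every array, 96.1% passed. F was 20.0 for Per1 (adjusted p = 1.6e-10), 14.1 for Arntl, 13.2 for Cry2, 10.8 for Per2, 9.23 for Nr1d1, 5.65 for Dbp and 5.61 for Cry1. Clock (F = 1.94, adjusted p = 0.054) and Per3 (F = 1.46, adjusted p = 0.18) did not pass. The same 7 passed when only differences within a plane were tested, where 64.1% of all probes did. Within planes F was 15.1 for Arntl, 14.4 for Per1, 11.9 for Cry2, 10.0 for Per2, 5.35 for Dbp, 5.04 for Cry1 and 4.7 for Nr1d1. Per3 passed without Co15 (F = 3.36, adjusted p = 0.0022), and Clock passed without any of S3, S9, S10, So3, So9 or Co14 (F = 2.01 to 2.61) and under median scaling (2.25). Clock also passed with the normalization of the authors (F = 2.2, adjusted p = 0.028) and with normexp and quantile normalization (2.2, adjusted p = 0.029). It passed among probes well above background on every array too (2.0, adjusted p = 0.038). A dimmer second probe of Clock passed this F test in the main fit (F = 3.89, adjusted p = 0.00067). Without the mouse as a block, 4 of the 9 passed.

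**Figure D1:**
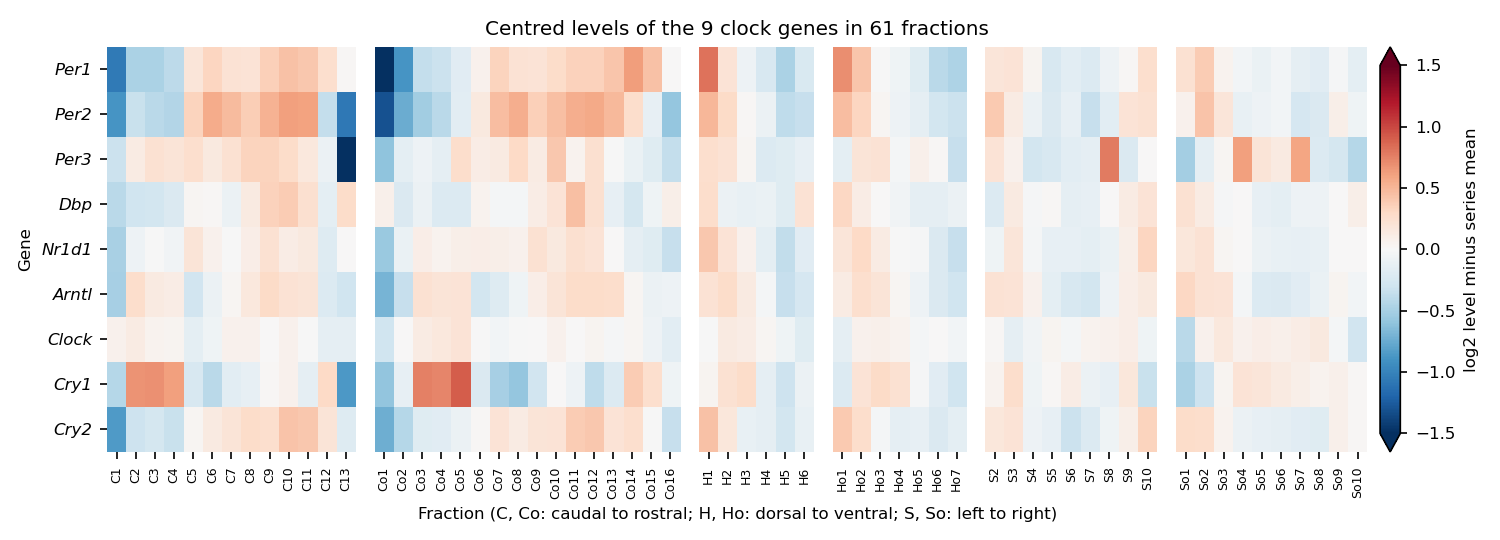
Centred log2 level (colour, with values beyond 1.5 in either direction at the end of the scale) of the 9 clock genes (rows) in the 61 fractions (columns), with the 6 series side by side. Per1, Per2 and Cry2 are blue in the first coronal fractions and red at the dorsal end of H and Ho, while Cry1 is red in C2 to C4 and Co3 to Co5.

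Along the coronal axis the clock genes did not share a layout. Between the 4 caudal and the 4 rostral pairs, which leave the middle of the brain aside, Per1, Per2, Dbp and Cry2 were lower caudally, and Cry1 and Clock were higher. These are 6 of 9 genes, 4 lower and 2 higher, against 59.5% of all probes that differed, 24.7% lower and 34.8% higher. Among probes well above background on every array 73.5% differed, 34.1% lower and 39.4% higher. The median difference was −0.09 over the members and 0.11 over all probes. Scaling each array to its median instead took the median over all probes to −0.04 and the share of calls that were higher from 58.5% to 42.1%. Under that scaling the direction of Clock turned (−0.02) and those of the other 8 were kept.

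Per1 (chr11:69095108-69109965), a repressor of the loop, was lowest at the caudal tip of both brains. Its centred level was −1.06 at the lowest (C1), 0.20 at the median and 0.44 at the highest (C10) in C. In Co it was −1.55 (Co1), 0.21 and 0.63 (Co14). The caudal 4 paired fractions lay below the rostral 4 without overlap in both mice, from −1.06 to −0.39 against 0.02 to 0.44 in C and from −0.89 to −0.17 against 0.34 to 0.63 in Co. The difference was −0.88 ± 0.07 (log2, SE; adjusted p = 3.5e-12), or 1.84-fold. Here and below, the overlap of bands was read off for the clock genes only, without a share over all probes.

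Per2 (chr1:91415977-91459351), its paralog, made an arch with both ends low. In C its centred level was −1.07 (C13), 0.33 and 0.62 (C10) from lowest through median to highest, and in Co it was −1.31 (Co1), 0.20 and 0.57 (Co12). The 5 middle pairs exceeded the 8 at the ends by 0.60 ± 0.07 (adjusted p = 6.4e-08). The 2 pairs at the rostral end lay below their 3 neighbours by −0.87 ± 0.11 (adjusted p = 2.5e-07), without overlap in either mouse. Caudal minus rostral was −0.62 ± 0.09 (adjusted p = 7.1e-07), without overlap in Co but with overlap in C, where C12 and C13 were low. A dimmer second probe of Per2 did not have the high middle (−0.02 ± 0.10, adjusted p = 0.89).

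Cry2 (chr2:92403646-92434085), a cryptochrome repressor, followed Per1. It rose from −0.85 (C1) through a median of 0.14 to 0.43 (C10) in C, and from −0.73 (Co1) through 0.07 to 0.40 (Co12) in Co. The caudal fractions lay below the rostral ones without overlap in both mice, with a difference of −0.56 ± 0.05 (adjusted p = 2e-10).

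Cry1 (chr10:85131700-85185054), the other cryptochrome, was high in 3 neighbouring coronal fractions of each brain. Its centred level was 0.67, 0.68 and 0.61 in C2, C3 and C4, and 0.76, 0.73 and 0.91 in Co3, Co4 and Co5. In the remaining fractions of C it was between −0.86 (C13) and 0.30 (C12), and in those of Co between −0.59 (Co1) and 0.38 (Co14), so that the 3 fractions stood apart from all others of their series. The markers of cerebellar granule cells (C3 and Co5) and of the choroid plexus (C3 and Co4) peaked among these fractions. Caudal minus rostral was 0.53 ± 0.10 (adjusted p = 6.4e-05), and middle minus ends was −0.46 ± 0.08 (adjusted p = 4.9e-05). The bands still overlapped in both mice, since C1 (−0.43) and Co2 (−0.12) are caudal and low.

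Arntl (chr7:113178471-113314126), the activator partner of Clock, had 2 humps. In C it was −0.50 in C1, 0.26 in C2, −0.29 in C5, 0.29 in C9 and −0.30 in C13. In Co it was −0.70 in Co1, 0.23 in Co3, −0.28 in Co6, 0.28 in Co11 and −0.08 in Co16. The dip between the humps fell on paired fractions (C5 and Co6) in both mice. A difference between the bands therefore missed most of its layout: caudal minus rostral was −0.02 ± 0.04 (adjusted p = 0.71), and middle minus ends −0.06 ± 0.03 (adjusted p = 0.13). Under median scaling its caudal difference was −0.17 (adjusted p = 0.004).

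Clock (chr5:76209868-76305603) was nearly flat. Its whole range within a series was 0.21 to 0.56 (log2), and the centred levels lay between −0.41 (So1) and 0.21 (Co5) over all 61 fractions. It was 0.12 ± 0.04 higher caudally (adjusted p = 0.013), a call that depends on the scaling as given above.

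Nr1d1 (chr11:98767932-98775377), the repressor of the second loop, was −0.49 in C1 and −0.56 in Co1, with a median of 0.00 and 0.08 and a highest value of 0.23 (C9) and 0.24 (Co11). The caudal tip was the lowest fraction in both mice, and the rostral end was low in Co (Co16 at −0.34). Middle minus ends was 0.14 ± 0.04 (adjusted p = 0.0096), and caudal minus rostral was −0.09 ± 0.05 (adjusted p = 0.18), −0.13 (adjusted p = 0.037) without Co2 and −0.23 (adjusted p = 0.00088) under median scaling.

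Dbp (chr7:45705100-45710203), the output activator, was highest at the level where the striatum markers peaked or next to it. Its centred level in C was −0.40 (C1), 0.02 and 0.38 (C10), and in Co it was −0.26 (Co14), −0.03 and 0.45 (Co11). Caudal minus rostral was −0.38 ± 0.05 (adjusted p = 5.9e-07), without overlap in C but with overlap in Co, where Co14 and Co15 were low.

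Per3 (chr4:150997018-151044707), the third Per paralog, was level along most of the axis. From C2 to C12 it stayed between −0.09 and 0.33, and C13 alone was at −1.87. In Co it was −0.60 (Co1), 0.02 and 0.40 (Co10), with Co15, the partner of C13, at −0.18. Caudal minus rostral was 0.20 ± 0.17 (adjusted p = 0.32), −0.02 without C13 and 0.42 (adjusted p = 0.0098) without Co15. C13 also differed from the rest of C in its scan day, as given with the differences between mice.

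The middle of the coronal axis was above its ends in 5 genes and below them in 1, against 21.5% and 28.4% of all probes and 50% in either direction. Among probes well above background on every array the shares were 29.0% and 31.2%, and 60.2% in either direction. The 5 were Per1 (0.32 ± 0.05), Per2, Dbp (0.13 ± 0.04), Nr1d1 and Cry2 (0.21 ± 0.04), and the 1 was Cry1. At the rostral end, where the olfactory bulb markers peaked, 6 genes were lower than in the neighbouring fractions and 0 were higher, against 24.9% and 23.4% of all probes and 48.3% in either direction. Among probes well above background on every array the shares were 33.4% and 32.3%, and 65.8% in either direction, near the share of the members. The 6 genes were Per2, Per3 (−0.80 ± 0.22), Dbp (−0.36 ± 0.07), Nr1d1 (−0.30 ± 0.07), Arntl (−0.38 ± 0.05) and Cry2 (−0.28 ± 0.07). Per1 (−0.02 ± 0.08) did not pass, and its 2 mice went opposite ways there, −0.27 in C and 0.22 in Co, each without overlap. The call of Per3 rested on 1 fraction: without C13 its difference was −0.37 (adjusted p = 0.13) and that of Cry1 became a call (0.38, adjusted p = 0.0051), with Cry1 above its neighbours in Co (0.46) without overlap, while Per2 stayed lower (−0.64).

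**Figure D2:**
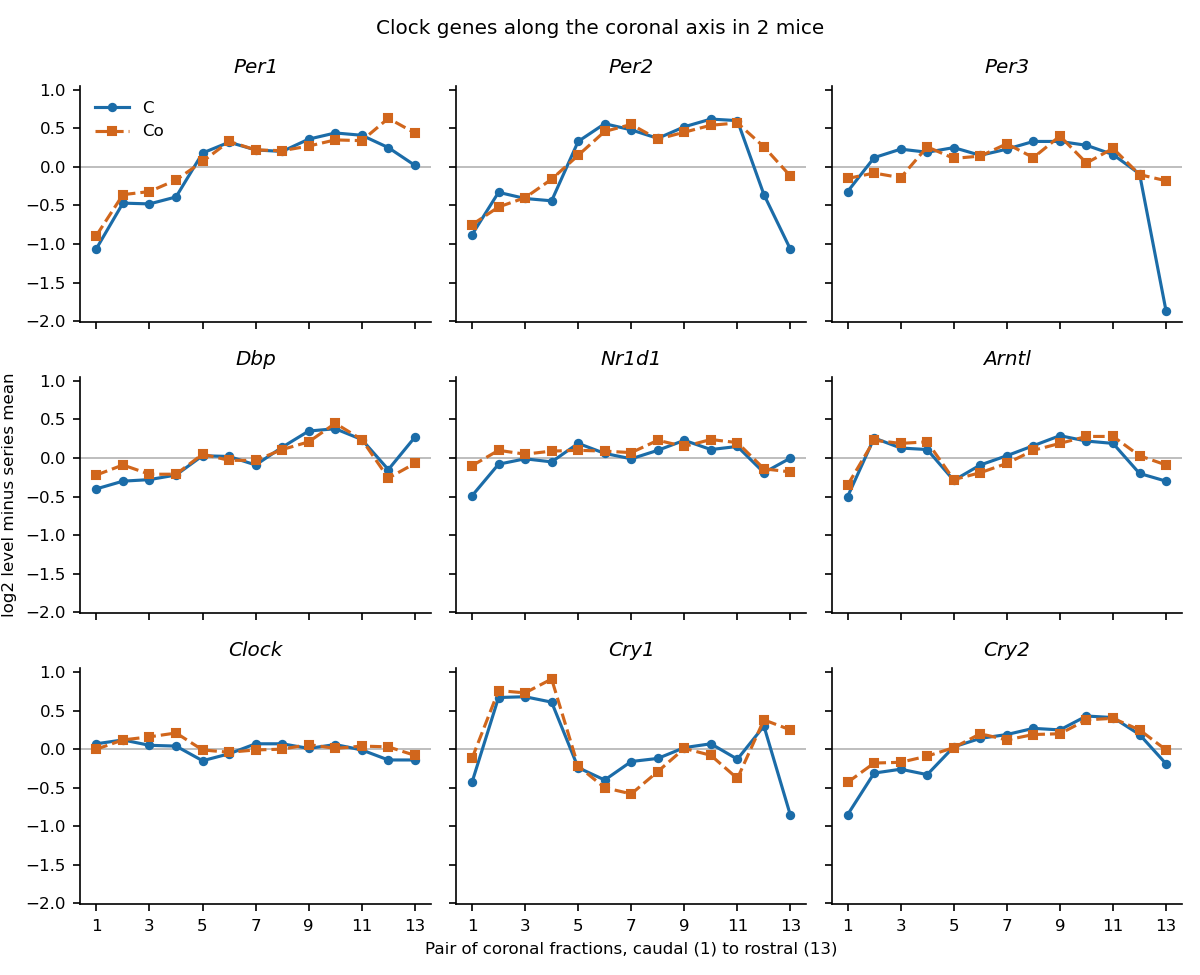
Centred log2 level (y axis) of each clock gene in the 13 coronal pairs (x axis, caudal to rostral) in C (blue circles) and Co (orange squares). The 2 mice run together for Per1, Cry2 and Arntl, Cry1 peaks at pairs 2 to 4 in both, and Per3, Cry1 and Per2 of C drop at pair 13.

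From the top to the base of the brain, the clock genes that passed were all higher dorsally. The 2 dorsal pairs exceeded the 2 ventral pairs in 6 of 9 genes and fell short in 0, against 12.2% and 14.9% of all probes and 27.2% in either direction. The median difference was 0.41 over the members and 0.01 over all probes. Among the 22307 tested probes that, like the members, were well above background on every array, 40% differed, and 18.9% of those tested were higher dorsally.

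Per1 was 0.81 in H1 and −0.48 in H5, with a median of −0.15, and 0.70 in Ho1 and −0.46 in Ho7, with a median of −0.06. It declined from the top in both mice, apart from a slightly higher value in H6, and the dorsal and ventral fractions did not overlap. The difference was 0.75 ± 0.09 (adjusted p = 7.8e-07). Arntl was between 0.27 (H2) and −0.34 (H5), and between 0.25 (Ho2) and −0.30 (Ho7), with a difference of 0.51 ± 0.05 (adjusted p = 9.7e-08). Its highest fraction was the second from the top in both mice, where Per1 and Per2 were highest in the first.

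Per2 (0.61 ± 0.12, adjusted p = 0.00042), Nr1d1 (0.54 ± 0.08, adjusted p = 4.4e-06) and Cry2 (0.40 ± 0.07, adjusted p = 0.00011) were also higher dorsally, without overlap in either mouse. Cry1 was higher by 0.41 ± 0.15 (adjusted p = 0.038), and the call was lost on leaving out any of H1, H2, H5, Ho2, Ho3, Ho6 or Ho7 (0.34 to 0.45, adjusted p from 0.056 to 0.17). Clock (0.14 ± 0.06, adjusted p = 0.096), Per3 (0.38 ± 0.24, adjusted p = 0.28) and Dbp (0.12 ± 0.08, adjusted p = 0.3) did not pass. The dorsal and ventral fractions of Dbp overlapped in H, where H6 was at 0.22. Median scaling raised the share of higher calls from 45.0% to 61.6% of all calls and added Clock (0.21, adjusted p = 0.022).

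From side to side, 6 of 9 genes were lower in the 3 pairs at the midline than in the 4 outermost pairs, and 0 were higher, against 15.6% and 17.6% of all probes and 33.2% in either direction. Among probes well above background on every array the shares were 24.3% and 22.4%, and 46.7% in either direction. The median difference was −0.22 over the members and 0.00 over all probes. Median scaling took the share of higher calls from 53.1% to 30.8%, and the 6 calls and directions held under it. With normexp and quantile normalization the calls of Per1 (−0.20, adjusted p = 0.058) and Dbp (−0.10, adjusted p = 0.2) were lost.

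Arntl was 0.22 (S2), 0.07 and −0.28 (S7) from highest through median to lowest in S, and 0.31 (So1), −0.03 and −0.22 (So6) in So. The midline fractions lay below the outermost ones without overlap in both mice, by −0.35 ± 0.04 (adjusted p = 1.8e-07). Cry2 ran from 0.33 (S10) to −0.32 (S6) and from 0.28 (So1) to −0.18 (So8), with a difference of −0.33 ± 0.05 (adjusted p = 2.5e-05) and no overlap either.

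Nr1d1 (−0.22 ± 0.06, adjusted p = 0.0037) did not overlap in either mouse. Per1 (−0.26 ± 0.07, adjusted p = 0.0051) and Per2 (−0.37 ± 0.09, adjusted p = 0.0027) overlapped in So, where So10 was within or near the midline range. Dbp (−0.15 ± 0.06, adjusted p = 0.039) lost its call without any 1 of 9 fractions (S3, S6, S7, S9, S10, So2, So5, So6 or So7), at −0.11 to −0.17. Per3 (0.16 ± 0.18), Clock (0.08 ± 0.05) and Cry1 (0.07 ± 0.11) did not pass.

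Between the left and the right side, 0 of 9 genes differed by limma's test at an adjusted p under 0.05, where 1.55% of all probes did. Only Arntl (0.11 ± 0.04) had an unadjusted p under 0.05 in that test (0.0067, adjusted p = 0.14), and it passed without S10 (0.14, adjusted p = 0.039). The 95% intervals of the other genes were narrow for Cry2 (−0.05 to 0.15) and Clock (−0.07 to 0.11) and wide for Per3 (−0.31 to 0.39). A share of 78.9% of the calls over all probes was higher on the left under median scaling, against 55.8% as scaled here.

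**Figure D3:**
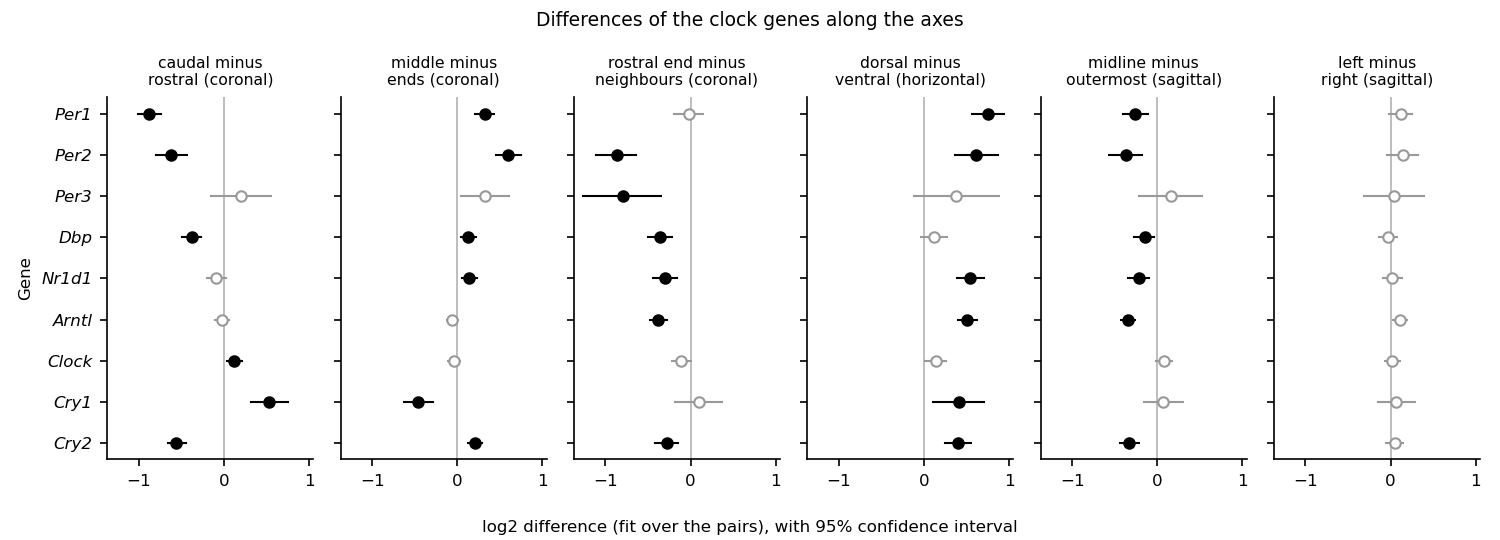
Log2 difference (x axis) of each clock gene (y axis) in the 6 comparisons along the axes, from the fit over the 28 pairs, with 95% confidence intervals. Filled points passed an adjusted p of 0.05. Per1, Per2 and Cry2 lie left of 0 from caudal to rostral and right of 0 from dorsal to ventral, and all points of the left to right comparison are open.

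The layouts of the clock genes were compared by Pearson's r over the 61 centred fractions, as a description, since fractions share mice, arrays and scaling. Per1 and Cry2 were most alike (r = 0.91, and 0.87 to 0.99 within the 6 series). Per2 and Cry2 (0.88) and Per1 and Per2 (0.83) followed, and Nr1d1 went with Cry2 (0.78) and Arntl (0.74). The 2 cryptochromes were unlike each other (−0.09, from −0.85 to 0.48 within series). Arntl and Clock, whose proteins pair, had r = 0.31 (−0.44 to 0.79 within series). Cry1 was most like Clock (0.51) among the members, and Dbp ran against Clock (−0.35) and Cry1 (−0.40). Values that involve Clock depend on the scaling: under median scaling Per1 and Clock went from 0.01 to 0.42, Per2 and Clock from 0.16 to 0.53, and Dbp and Clock from −0.35 to 0.05.

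The same layouts returned in the second mouse to different degrees. Over the 13 coronal pairs, r between the mice was 0.97 for Cry2, 0.92 for Per1, 0.89 for Arntl, 0.84 for Per2 and for Dbp, 0.70 for Cry1, 0.66 for Nr1d1, 0.55 for Per3 and 0.46 for Clock. The median over all detected probes was 0.68. Over the 6 horizontal pairs it was between 0.57 (Per3) and 0.97 (Per2 and Cry2) against a median of 0.58, with 8 of the 9 above that median. Over the 9 sagittal pairs it was 0.91 for Arntl and 0.85 for Per2, but −0.04 for Cry1 and −0.47 for Per3, against a median of 0.36. Clock was below the median in the coronal and sagittal pairs and above it in the horizontal pairs (0.76), and Per3 was below it in all 3 planes.

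In each mouse the fraction where the markers of an area peaked was looked up, and the level of the clock genes there was read off. Cerebellar granule cell markers peaked in C3 and Co5, medulla in C1 and Co1, cerebral cortex in C11, Co12, H1 and Ho1, and olfactory bulb in C13 and Co15. Outside the coronal plane some lists shared their fractions. Granule cell and hippocampus markers both peaked in S3, So3, H2 and Ho3, and olfactory bulb and thalamus markers both in S7, So6, H4 and Ho5. The levels read off in those mice are therefore the same values for both lists. Other lists peaked in different places in the 2 mice of a plane, such as pituitary (C8 and Co1), pineal gland (C10 and Co7), astrocytes (S4 and So10) and microglia (H6 and Ho1). A fraction holds several areas, and with 1 value per mouse the means below carry no test. The counts of mice above or below 0 were read off for the clock genes only, without a share over all probes. Whether they are particular to the clock genes was therefore not tested.

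Where cerebral cortex markers peaked, 6 clock genes were above their series mean in 6 of 6 mice. They were Per1 (0.48 ± 0.22, SD over 6 mice), Per2 (0.46 ± 0.13), Cry2 (0.37 ± 0.07), Nr1d1 (0.25 ± 0.10), Dbp (0.23 ± 0.06) and Arntl (0.19 ± 0.06). Cry1 was below it in 5 of 6 (−0.22 ± 0.16). Under median scaling Cry1 moved to −0.04, Arntl to 0.33, Nr1d1 to 0.38, Dbp to 0.31, Cry2 to 0.47 and Clock from −0.02 to 0.13. Where granule cell markers peaked, Cry1 (0.40 ± 0.33), Arntl (0.20 ± 0.05) and Per3 (0.17 ± 0.10) were above 0 in 6 of 6 mice, and Cry1 reached 0.68 in C and 0.91 in Co. In the same fractions Per1 (−0.03 ± 0.26) and Cry2 (0.01 ± 0.17) were on both sides of 0.

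Where medulla markers peaked, Per1 (−0.58 ± 0.59), Per2 (−0.48 ± 0.50), Cry2 (−0.35 ± 0.34), Arntl (−0.26 ± 0.27) and Nr1d1 (−0.24 ± 0.23) were below 0 in 6 of 6 mice. The oligodendrocyte markers peaked in the same coronal fractions (C1 and Co1), and the same 5 genes were below 0 in 6 of 6 mice at their peak. Those markers were higher caudally in 5 of 5 genes, lower dorsally in 5 of 5 and higher at the midline in 5 of 5, and their mean centred level ran from −1.41 to 1.16 in C and from −1.36 to 1.30 in Co. Those of cortex were lower caudally in 3 of 4, higher dorsally in 4 of 4 and lower at the midline in 4 of 4, and their mean centred level ran from −2.22 to 1.90 in C and from −2.22 to 1.89 in Co. In these 3 comparisons the cortex list went in the direction of Per1, Per2 and Cry2, and the oligodendrocyte list went against it. The part of either list in the layouts of these genes was not tested.

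Where hippocampus markers peaked, Per2 (0.29 ± 0.22), Per3 (0.16 ± 0.10) and Nr1d1 (0.11 ± 0.07) were above 0 in 6 of 6 mice. At the olfactory bulb peak Per2 (−0.30 ± 0.39), Arntl (−0.17 ± 0.11) and Cry2 (−0.13 ± 0.07) were below 0 in 6 of 6, and at the astrocyte peak Per2 (−0.50 ± 0.49) and Per3 (−0.35 ± 0.16) were. The astrocyte markers also peaked in C1 and Co1, so that their coronal values are those read at the medulla and oligodendrocyte peaks. At the hypothalamus peak 0 of the 9 were on 1 side in all mice, with means between −0.10 (Arntl) and 0.13 (Per3). The same held at the peaks of the thalamus, striatum, pineal gland, pituitary, choroid plexus, microglia and endothelial cell markers.

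**Figure D4:**
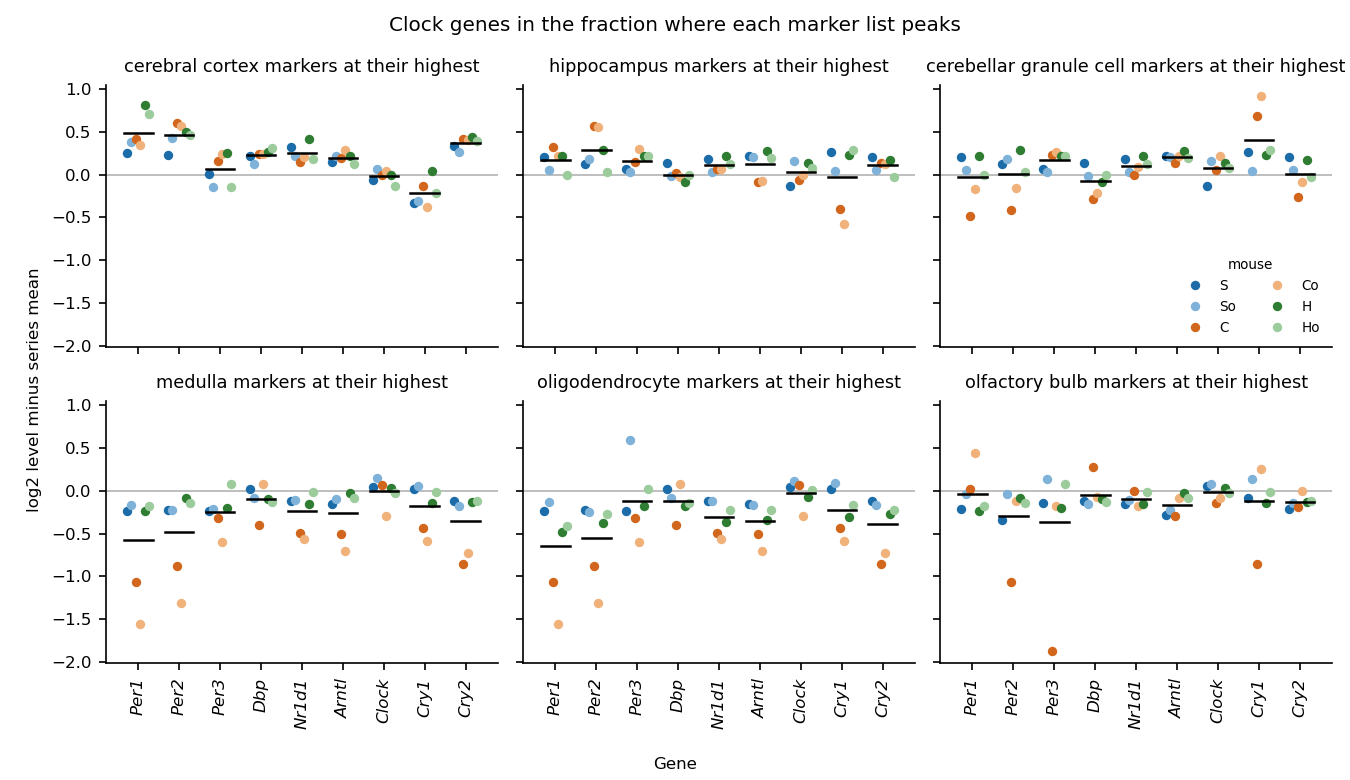
Centred log2 level (y axis) of each clock gene (x axis) in the fraction of each of the 6 mice (coloured points) where the markers of an area are highest, with the mean over the mice as a bar. Per1, Per2 and Cry2 lie above 0 in all mice in the cortex panel and below 0 in the medulla and oligodendrocyte panels, and Cry1 reaches 0.91 in the granule cell panel.

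Centring each series takes out the level of the mouse, and those levels differed too. So exceeded S in 4 clock genes and fell short in 2, with 30.1% of all probes called (11.9% higher and 18.2% lower). Co exceeded C in 2 and fell short in 3, with 53.5% called (26.8% higher and 26.6% lower). Ho exceeded H in 2 and fell short in 0, with 5.35% called (3.77% higher and 1.58% lower). Among probes well above background on every array 41.5% were called between So and S, 71.7% between Co and C and 9.46% between Ho and H. The share of higher calls over all probes moved from 39.6% to 62.1% between So and S, and from 70.4% to 56.8% between Ho and H, under median scaling.

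Per1 was lower in So than in S in 9 of 9 pairs (−1.05 to −0.44), by −0.67 ± 0.06 (adjusted p = 8.3e-09). It was higher in Co than in C in 13 of 13 pairs (0.41 to 0.94), by 0.61 ± 0.05 (adjusted p = 1e-10), and its difference between Ho and H was 0.03 ± 0.08. Arntl was higher in Co in 13 of 13 pairs (0.36 to 0.69), by 0.49 ± 0.03 (adjusted p = 1.8e-13). Nr1d1 was lower in Co in 12 of 13 pairs, by −0.12 ± 0.04 (adjusted p = 0.022), a call lost without C5, C9, C13 or their partners (−0.10 to −0.09), under median scaling (adjusted p = 0.086), in the table normalized by the authors (0.068) and with the slide as a random block (0.098). Dbp (0.42 ± 0.06, adjusted p = 0.0001) and Nr1d1 (0.34 ± 0.06, adjusted p = 0.00094) were higher in Ho than in H in 6 of 6 pairs each.

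Per3 and Cry1 had the largest differences between Co and C among the 9 genes, −1.53 ± 0.13 (adjusted p = 1.9e-10) and −1.03 ± 0.08 (adjusted p = 2.8e-11), lower in Co in 12 of 13 pairs each. The exception was the same pair in both genes, C13 with Co15. In the other 12 pairs Per3 differed by −1.97 to −1.44 and Cry1 by −1.51 to −0.78, and in the pair of C13 they differed by 0.08 and 0.02. C13 was scanned on the day of H and Ho, apart from the other 12 fractions of C, and Co on a day of its own, so that no scan day is shared by C and Co. For Arntl the pair of C13 (0.67) lay within the others, and for Per1 (0.94) just above their highest (0.90). For Per2 it was 0.72, against −0.43 to 0.38, and without C13 or Co15 Per2 became a call (−0.20, adjusted p = 0.0017). Dbp (−0.43, against −0.23 to 0.12) and Nr1d1 (−0.37, against −0.27 to 0.21) were below the range of the other pairs. The low centred values of Per3 (−1.87) and Cry1 (−0.86) in C13 thus stand where the scan day changed, and whether position or scan day goes with them cannot be told apart.

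S2 likewise was scanned with So and apart from the other 8 fractions of S. Its pair had a difference of −0.15 for Cry1, where the other pairs lay between 0.00 and 0.57, and of 0.49 for Dbp and 0.46 for Nr1d1, where the others reached at most 0.21 and 0.23. For Per1 it was −0.44, against −1.05 to −0.49 in the others. With the scan day as a fixed block, 1 of the 9 genes was called between So and S (Dbp, 0.49), where 1.72% of all probes were, and that estimate rests on the pair of S2. Without the block, Per2 (−0.26 ± 0.08, adjusted p = 0.016) was lower in So, and Per3 (0.46 ± 0.16, adjusted p = 0.032), Dbp (0.15 ± 0.05, adjusted p = 0.03), Nr1d1 (0.17 ± 0.05, adjusted p = 0.013) and Cry1 (0.27 ± 0.10, adjusted p = 0.037) were higher. The call of Per2 was lost under median scaling (−0.19, adjusted p = 0.11), and those of Nr1d1 (0.11, adjusted p = 0.14) and Cry1 (0.17, adjusted p = 0.12) with normexp and quantile normalization. With the slide as a random block Per2 (adjusted p = 0.099), Per3 (0.25) and Cry1 (0.32) were not called. Per3, Dbp and Cry1 lost their calls, and the count of 6 fell to 3, without S4, S7, So4 or So7, and without S2 the difference of Dbp was 0.10 (adjusted p = 0.11).

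**Figure D5:**
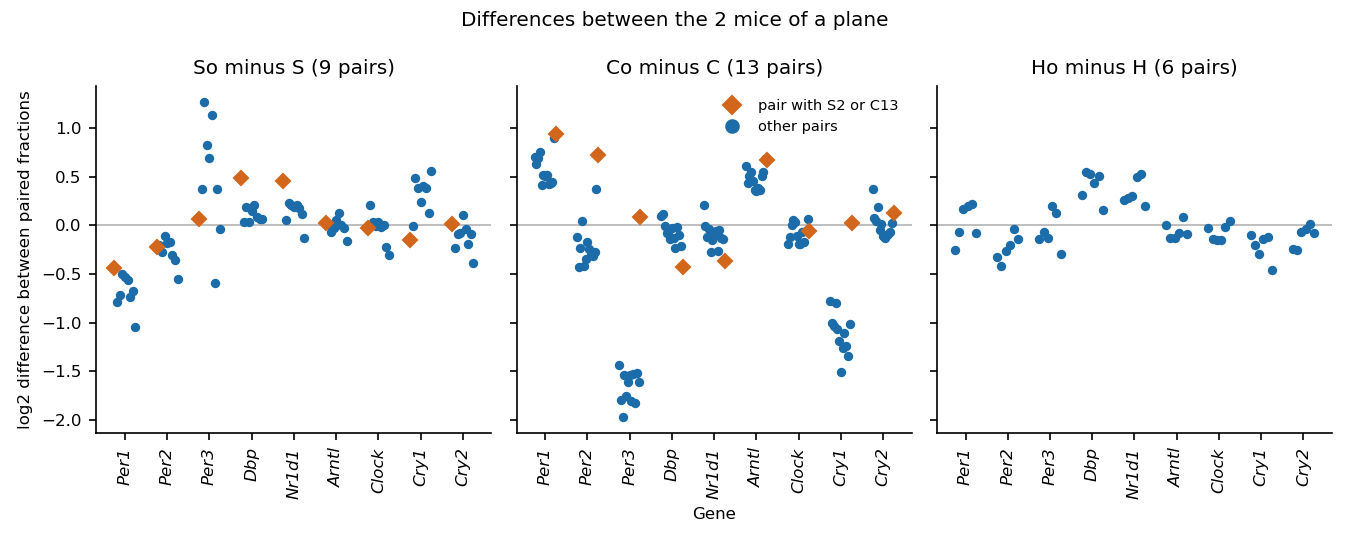
Log2 difference between the paired fractions of 2 mice (y axis) for each clock gene (x axis), 1 point per pair, in the 3 planes. Orange diamonds mark the pairs of S2 and C13, which were scanned on another day than the rest of their series. In the coronal panel Per3 and Cry1 lie between −1.97 and −0.78 except for the diamonds, which are at 0.08 and 0.02.

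For 5 of the members a dimmer second probe was measured, and it did not always have the same layout. The second Per2 probe (mean signal 45.4 units, against 660.0 for the first, and well above background on 61 arrays) was 0.39 ± 0.12 higher caudally (adjusted p = 0.0064), where the first was lower. Its differences for the middle (−0.02 ± 0.10, adjusted p = 0.89) and the rostral end (−0.10 ± 0.16, adjusted p = 0.64) did not pass. Nor did the dorsal (0.42 ± 0.17, adjusted p = 0.072) and midline (−0.22 ± 0.13, adjusted p = 0.21) differences, which kept the direction of the first. The second Nr1d1 probe (114.0 units) was 0.17 ± 0.07 higher caudally (adjusted p = 0.048) but had the dorsal (0.53 ± 0.10) and midline (−0.22 ± 0.08) differences of the first. Its differences for the middle (−0.11 ± 0.06, adjusted p = 0.13) and the rostral end (−0.11 ± 0.09, adjusted p = 0.35) did not pass. The second Cry2 probe (84.0 units) had the dorsal (0.48 ± 0.09), midline (−0.23 ± 0.07) and rostral end (−0.40 ± 0.09) differences, and its caudal difference was −0.11 ± 0.07 (adjusted p = 0.16).

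The second Cry1 probe (38.6 units, well above background on 56 arrays) had the caudal excess (0.94 ± 0.15, adjusted p = 3.5e-06) and the low middle (−0.77 ± 0.12). Between the coronal mice it went the other way from the first probe, 0.67 ± 0.12 higher in Co (adjusted p = 1.9e-05). The position of Cry1 along the coronal axis was thus alike in both probes, and the difference between Co and C was not. The dorsal difference of the second Cry1 probe (0.22 ± 0.21, adjusted p = 0.52) did not pass. Clock has 2 further probes (430.0 and 22.1 units), both higher caudally (0.18 ± 0.05 and 0.58 ± 0.16), with differences between Co and C of −0.49 ± 0.04 and 0.31 ± 0.13.

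Other genes of the clock were taken from a list of 20, all tested. Caudal minus rostral, 8 were higher and 7 lower (34.8% and 24.7% of all probes), with a median of 0.11, the same as that of all probes. At the rostral end 14 were lower and 4 higher (24.9% and 23.4% of all probes; median −0.46, against −0.01 over all probes), and dorsally 11 were higher and 1 lower (12.2% and 14.9%; median 0.34, against 0.01). Npas2, which can stand in for Clock in the forebrain, was −1.81 ± 0.11 lower caudally (adjusted p = 3.1e-14) and peaked in C10 and Co12. The ROR activator Rora (1.71 ± 0.07) was higher caudally and peaked in the cerebellar fractions C2 and Co5, while Rorb was lower (−0.50 ± 0.15).

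Tef (−0.44 ± 0.03) and Hlf (−0.47 ± 0.09), of the same family of activators as Dbp, were lower caudally as Dbp was. Bhlhe40, a repressor of the loop, was lower caudally (−0.45 ± 0.08) and higher dorsally (1.09 ± 0.12), as Per1 was. Nr1d2, the paralog of Nr1d1, was higher caudally (0.49 ± 0.04, adjusted p = 8.8e-11). A promoter window was listed for 15 of the 20, and 4 of these (Bhlhe41, Ciart, Cipc and Tef) held an E-box.

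Of 9 signalling genes of the suprachiasmatic nucleus, 8 were tested. Caudally 4 were lower and 1 higher (24.7% and 34.8% of all probes), dorsally 5 were lower and 2 higher (14.9% and 12.2%), and at the midline 6 were higher and 1 lower (17.6% and 15.6%). Avp, the vasopressin gene, was −8.64 ± 0.54 lower dorsally (adjusted p = 1.1e-11) and peaked at 6.40 in C8, 6.89 in Co10, 7.06 in H6 and 5.79 in Ho7. Vip, also made by cortical interneurons, peaked in C11, Co13, H1 and Ho1, with an r of 0.78 with Per1 over the 61 centred fractions, where that of Avp was 0.04. In the fractions of the Avp peak, Per1 was at 0.20 in C8, 0.27 in Co10, −0.23 in H6 and −0.46 in Ho7, and thus not at its own peak in any of the 4. Six6, well above background on 2 arrays, peaked in the same 4 fractions. Lhx1 (C2 and Co5), Vipr2 (C12 and Co14) and Prok2 (C13 and Co15) peaked elsewhere along the coronal axis. These fractions hold whole slabs, so that the level of Per1 in the suprachiasmatic nucleus itself was not measured.

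Immediate early genes, which neuronal activity induces, were counted because Per1 responds to it too. Of 10, 8 were lower caudally and 0 higher (median −2.72, against −0.88 for Per1), where 24.7% and 34.8% of all probes were. Dorsally 10 were higher (median 1.21, against 0.75 for Per1), where 12.2% of all probes were. Between So and S 8 were lower and 0 higher (median −0.81, against −0.67 for Per1; 18.2% and 11.9% of all probes), and between Co and C 4 were higher and 1 lower (median 0.28, against 0.61 for Per1; 26.8% and 26.6%). Between Ho and H 0 were called (median −0.15, against 0.03 for Per1; 5.35% of all probes). Nr4a1, the gene of this list with the highest r to Per1, was −1.02 ± 0.10 lower in So (adjusted p = 4.7e-08) and 0.82 ± 0.09 higher in Co (adjusted p = 6.8e-09). Over the 61 centred fractions the r of the 10 genes with Per1 ran from 0.53 (Ier2) to 0.90 (Nr4a1). The part of neuronal activity in the layout of Per1 or in its differences between mice was not tested.

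Of 10 glucocorticoid-responsive genes, 9 were tested. Between So and S 6 were lower and 2 higher (18.2% and 11.9% of all probes), and between Co and C 4 were higher and 4 lower (26.8% and 26.6%). Between Ho and H 2 were higher and 1, Klf9, was lower (3.77% and 1.58%), with a median of 0.21, against 0.02 over all probes. Sgk1 (−0.93 ± 0.09) and Fkbp5 (0.26 ± 0.08) went opposite ways between So and S. Klf9 was −2.59 ± 0.09 lower in Co than in C (adjusted p = 1.1e-17) and −2.33 ± 0.14 lower in Ho than in H (adjusted p = 5e-12), a plane in which Dbp and Nr1d1 were higher. The part of these responses in the differences between mice was not tested.

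Among 11124 other named genes measured well above background on every array, those with a layout most like a member's over the 61 centred fractions were listed by r. Per1 was nearest to Hivep2 (0.943), R3hdm2 (0.936) and Dlgap4 (0.920). Per2 was nearest to Prkcb (0.923), a protein kinase C gene of the forebrain, Sv2b (0.922) and Mtmr12 (0.921). Cry2 was nearest to Acap3 (0.948), Btbd6 (0.931) and Dusp8 (0.929).

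Arntl was nearest to Camkk2 (0.917), Fam78b (0.896) and Osbp2 (0.878), and Nr1d1 to Mapk14 (0.874), Osbp2 (0.871) and Klhdc3 (0.859), so that Osbp2 stood in both lists. Cry1 was nearest to Nrf1 (0.894), Unk (0.876) and Ppm1d (0.873). Lower values were reached for Dbp, with Srm (0.788) and Asphd1 (0.784), for Per3, with Aebp2 (0.772), Rsc1a1 (0.770) and Uggt1 (0.767), and for Clock, with Chd9 (0.771), Clvs1 (0.764) and Bicd1 (0.760). Per1, Cry2, Per2 and Arntl, the 4 with the largest F over the pairs, had a gene above 0.91. Per3 and Clock, whose probes used here had no call in that test, had none above 0.78.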

How the data were processed

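Total RNA of 61 brain fractions was measured on 1-colour Agilent whole mouse genome arrays. The deposited files hold, per the file headers, spot intensities from Feature Extraction 9.1.3.1 (processed signal, background-subtracted), with no normalization between arrays. A second kind of file holds intensities that the authors normalized per chip in GeneSpring GX for 36558 probes, used here as an alternative. The unflagged spots of each of 41174 probes were averaged as log2 processed signal minus the 75th percentile of the array. The number of arrays limits the precision, and 0 spots of the probes were saturated.

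Probes were named through RefSeq accessions (22951 named), and the 36573 detected probes were fitted with limma 3.58.1 (R 4.3.3) on the 28 pairs with the mouse of each plane as a block and an empirical Bayes F or contrast test. P-values were adjusted by Benjamini and Hochberg's method at 0.05. Each series was cut from 1 mouse, so that the mouse pairs its fractions, and deviations from the pair means correlated within a mouse (median r = 0.279 over 129 comparisons of fractions) and not between mice (−0.026 over 249). The script was tested on simulated data. The members, marker lists and bands were chosen with earlier results of these data known, and every member is described. Genes outside the members were named from fixed lists, or as the 3 with the highest r to a member, and a few genes that these rules name are not reported here. Alternatives were other scalings, normexp with quantile normalization, no block, the slide or scan day as a block, other probes and leaving out each of 56 fractions. Scan day and within-plane fits were added after seeing the data. Tables and figures were made with Python 3.11.15.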

Additional observations from a re-analysis of the deposited data

Results flagged for a closer look

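Per3 in fraction S8 stood apart from the other 8 fractions of S. Its centred level there was 0.78 (log2), and the nearest other fraction was at 0.20. The So mouse had its own high values of Per3 in So4 (0.61) and So7 (0.59), and So8, the partner of S8, was at −0.21. Of 36 combinations of gene and series that could be tested this was the 1 that passed, where chance passes about 1 in 20.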

How the results depend on the processing

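Of the counts of clock genes called and the summaries of layout, 85 values under other settings stayed within 1.5 times (or, for likeness, the spread between series) and 8 moved further. Without the replicate block the layout count was 4 (3 in the one-way ANOVA of the methods), middle minus ends 2 and midline minus outermost 2, and of all probes 61.2% were called for layout. With the next probe of a gene, middle minus ends gave 3 and Ho minus H 1. Between So and S the slide as a random block gave 3 and the scan day as a fixed block 1. Leaving out 1 fraction at a time, counts were 7 to 8 for layout, 6 to 7 for caudal minus rostral, 6 to 7 for middle minus ends, 6 to 6 at the rostral end, 5 to 6 dorsally, 5 to 6 at the midline, 0 to 1 for left minus right, 3 to 7 for So minus S, 4 to 7 for Co minus C and 2 to 2 for Ho minus H.

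Directions turned as follows, and the cause was not tested. Under median scaling, caudal minus rostral of Clock was −0.02, midline minus outermost of Clock and of Cry1 −0.03, left minus right of Dbp 0.01, and So minus S of Arntl 0.06 and of Clock 0.03. In the table normalized by the authors these were −0.03, −0.03, −0.03, 0.01, 0.07 and 0.04. With normexp and quantile normalization, Arntl was 0.02 (caudal) and 0.01 (So minus S) and Per1 −0.01 (Ho minus H). With the scan day as a block, Per3 was −0.02 (caudal and left minus right), Per1 0.07 (rostral end), Dbp 0.02 (left minus right), and Arntl 0.02, Cry1 −0.15 and Cry2 0.01 (So minus S), and with the slide as a random block Per1 was −0.0 (Ho minus H). With the next probe, Per2 was 0.39 (caudal), −0.02 (middle), −0.18 (left minus right) and 0.09 (Co minus C), Nr1d1 0.17, −0.11, −0.04 and −0.08 (So minus S), Cry1 −0.35 (left minus right), −0.12 (So minus S), 0.67 (Co minus C) and 0.01 (Ho minus H), and Cry2 −0.44 (Co minus C). With the dimmest probe, Clock was 0.0 (middle), −0.03 (midline) and 0.31 (Co minus C). Leaving out 1 fraction, Per3 ranged from −0.02 to 0.42 and Arntl from −0.04 to 0.01 (caudal), Per1 from −0.11 to 0.07 and Cry1 from −0.18 to 0.38 (rostral end), Per3 from −0.11 to 0.18, Dbp from −0.08 to 0.02, Nr1d1 from −0.02 to 0.07 and Clock from −0.02 to 0.06 (left minus right), Arntl from −0.02 to 0.01 (So minus S), Cry2 from −0.01 to 0.03 (Co minus C) and Per1 from −0.01 to 0.08 (Ho minus H).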

Other observations

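The 5 fractions outside the pairs entered none of the tests between pairs, but did enter the likeness of layouts and the area peaks. In Co1, the caudal tip, Per1 (−1.55), Per2 (−1.31), Cry2 (−0.73), Arntl (−0.70), Per3 (−0.60), Cry1 (−0.59), Nr1d1 (−0.56) and Clock (−0.30) had their lowest centred level of Co, and Dbp was at 0.08. In Co13 Per1 was at 0.42 and Per2 at 0.49, within the rostral forebrain values. In Co16, the rostral tip, Per2 was at −0.58, Cry2 at −0.35 and Nr1d1 at −0.34, and Per1 at 0.01. In So1 Clock (−0.41), Cry1 (−0.48) and Per3 (−0.51) had their lowest level of So, while Arntl (0.31), Cry2 (0.28) and Dbp (0.23) had their highest. In Ho1 Per1 (0.70), Per2 (0.46), Cry2 (0.39) and Dbp (0.31) had their highest level of Ho, and Clock (−0.13) its lowest.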
